A study of Homo sapiens with 18 samples.

Results

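Matrix proteases and their inhibitors were followed across 2 melanoma cell lines treated with cell cycle or arginine methylation inhibitors. The group was set by name as 9 genes, namely MMP1, MMP2, MMP3, MMP14, TIMP1, TIMP2, TIMP3, PLAU and PLAT. Of these, MMP2, MMP3, MMP14, TIMP2 and PLAT had an entry among the 20705 genes of the count table, and the 5 were used whatever their values. MMP1, TIMP1, TIMP3 and PLAU were not analysed here.

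RNA was sequenced from 18 libraries in 9 groups, with 2 replicates in each group. CHL1 cells (BRAF wild type, NRAS wild type, p53 mutant, grown in DMEM) received DMSO for 72 hours (control), 1 µM of the CDK4/6 inhibitor palbociclib for 72 hours or 6 days (CDK4/6i), or GSK3326595, which blocks the arginine methyltransferase PRMT5, at 500 nM for 72 hours (PRMT5i). A375 cells (BRAF mutant, p53 wild type, grown in RPMI-1640) received the same treatments and had a DMSO control at each of 72 hours and 6 days, whereas the 6-day CHL1 cells were compared with the 72-hour control. Both lines carry the genotype label WT, meaning that no engineered change is given, and each is a single established line. The methods speak of replicates of each culture condition without saying whether they were set up independently, so p-values measure the spread between these libraries, which may be technical.

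Matrix metalloproteinases (MMPs) are zinc enzymes that cut collagens and other proteins outside the cell, and most are made as inactive precursors. MMP14 sits in the cell membrane and activates the MMP2 precursor in a complex that contains the inhibitor TIMP2, so TIMP2 takes part in activation as well as in inhibition. PLAT and PLAU convert plasminogen to plasmin, which degrades fibrin and activates further MMP precursors, and in melanoma these enzymes are known for their role in invasion.

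Total counts ranged from 16213475 to 37424081 per library. Expression is given as CPM, the reads of a gene scaled to a common library size. Replicates differed by more than counting noise, with a chi-square per degree of freedom between 7.6 and 118 across the groups. Some libraries stood apart in how expression followed the GC content of genes. The mean log2 deviation of the richest 10% of genes minus that of the poorest 10% was -2.74 and -2.12 in CHL1 PRMT5i and -2.43 and -1.21 in the 6-day A375 control, and lay between -0.38 and 0.63 in the other 14 libraries. What produced this trend was not tested, and where a correction for GC content changed the call of a member, or removed that of another named gene, the corrected value or its adjusted p is given as well. The names of the libraries put CHL1 and the 6-day A375 libraries in one set and the 72-hour A375 libraries in another. Of 6 melanocyte genes with an entry, 5 reached a mean of 1 CPM in CHL1 and 3 in A375, and their sum ranged from 155 to 285 CPM in CHL1 and from 113 to 263 CPM in A375. MITF had means of 88.1 and 121 CPM, PMEL 1.04 and 1.7, TYR 0.0373 and 0.911, DCT 82.7 and 0.478, TYRP1 2.56 and 0.45, and S100B 45.4 and 29.7. AXL and EGFR, which mark dedifferentiated melanoma cells, had 33 and 0.274 CPM in CHL1 and 432 and 142 CPM in A375.

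The GC content of the members' longest transcripts differed. It was 58.6% in MMP14, 55.8% in MMP2 and 53.7% in TIMP2, all above the median of 47.5% over 13679 expressed genes, and 45.6% in PLAT and 45% in MMP3. In GRCh37, the build the authors aligned to, MMP14 spans chr14:23305769-23318250 on the plus strand, MMP2 chr16:55423612-55540603 on the plus strand, TIMP2 chr17:76849059-76921469 on the minus strand and MMP3 chr11:102706532-102714340 on the minus strand. Counts were made over the exons of each gene. Exonic sequence at the 3′ end of MMP3 is overlapped by WTAPP1, a transcribed pseudogene on the opposite strand, and whether the libraries kept strand is not stated.

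The promoter of MMP14 is shown because only 1 of the 5 genes, MMP14, was matched in the set of RefSeq promoters used. The 250 bases before its start (chr14:22836335-22836584 of GRCh38.p14, plus strand) were taken from that set. Capitals mark the motif matches.
MMP14: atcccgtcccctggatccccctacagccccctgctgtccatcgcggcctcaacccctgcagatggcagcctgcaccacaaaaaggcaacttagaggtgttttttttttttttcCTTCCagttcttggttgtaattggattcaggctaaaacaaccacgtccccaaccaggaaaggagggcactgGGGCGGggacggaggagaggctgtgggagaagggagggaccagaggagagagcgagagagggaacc
On both strands, 4 motifs were searched. GGAAG, the letters searched as an ETS site, matched once, on the minus strand at -137 from the start. Shorter forms of the ETS site were not searched. The GC box GGGCGG matched once at -66. Of 27305 promoters of this length, 65.13% hold GGAAG and 42.31% GGGCGG. Neither TGANTCA, the AP-1 site, which 6.596% of promoters hold, nor TATAAA, which 11.13% hold, occurred in this window. Its GC content of 56.8% was close to the promoter median of 58%.

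In the 72-hour controls, A375 was higher in MMP2 and MMP3, CHL1 was higher in MMP14 and PLAT, and TIMP2 lay at a like level in both. MMP2, a gelatinase that cuts type IV collagen of basement membranes, had 9.29 and 8.19 CPM in CHL1 and 251 and 254 CPM in A375, so that CHL1 was 28.9-fold lower (log2 difference -4.85 ± 0.24 SE, adjusted p = 4.91e-12, edgeR quasi-likelihood test with Benjamini-Hochberg adjustment over all genes, as for each adjusted p below). MMP14 had 399 and 366 CPM in CHL1 and 95.3 and 103 CPM in A375, a 3.87-fold difference (adjusted p = 7.24e-08). PLAT had 253 and 191 CPM in CHL1 and 58.7 and 57.7 CPM in A375, a 3.82-fold difference (adjusted p = 1.3e-05). The groups did not overlap for any of the 3 genes. With 2 libraries a group, a lack of overlap does not by itself show a difference, here or below. How many of all genes lacked overlap was not counted. TIMP2 had 158 and 146 CPM in CHL1 and 140 and 150 CPM in A375, and these ranges overlapped (log2 difference 0.07 ± 0.17 SE, adjusted p = 0.766). MMP3, stromelysin 1, had 9.51 and 7.97 CPM in A375 and no read in the CHL1 control. Taking 3 counts per library as the floor, 0.105 CPM, A375 was at least 83.2-fold higher. A single MMP3 read was found in the 8 CHL1 libraries together, and 7 of them held none. Thus 4 of the 5 genes differed between the lines, where 58.9% of all genes did. Line, medium and library set cannot be told apart in this comparison, nor can fewer expressing cells and less RNA per cell in any comparison here. Summed fibroblast genes, which mark cells rich in MMP2, ranged from 20.1 to 44.4 CPM in CHL1 and from 19.3 to 54.3 CPM in A375. In CHL1 and A375, LUM had means of 24.9 and 6.65 CPM, DCN 0.0588 and 0.382, COL1A1 1.12 and 8.9, and PDGFRB 6.65 and 18. PDGFRA was at 0 in every CHL1 library and at a mean of 0.923 CPM in A375. The leukocyte genes summed to between 7.59 and 17.2 CPM in CHL1 libraries and to between 0.29 and 0.932 CPM in A375. PTPRC averaged 12.5 CPM in CHL1 and 0.349 in A375, and CD14 0.286 and 0.275. The part of such cells in the difference was not tested.

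**Figure D1:**
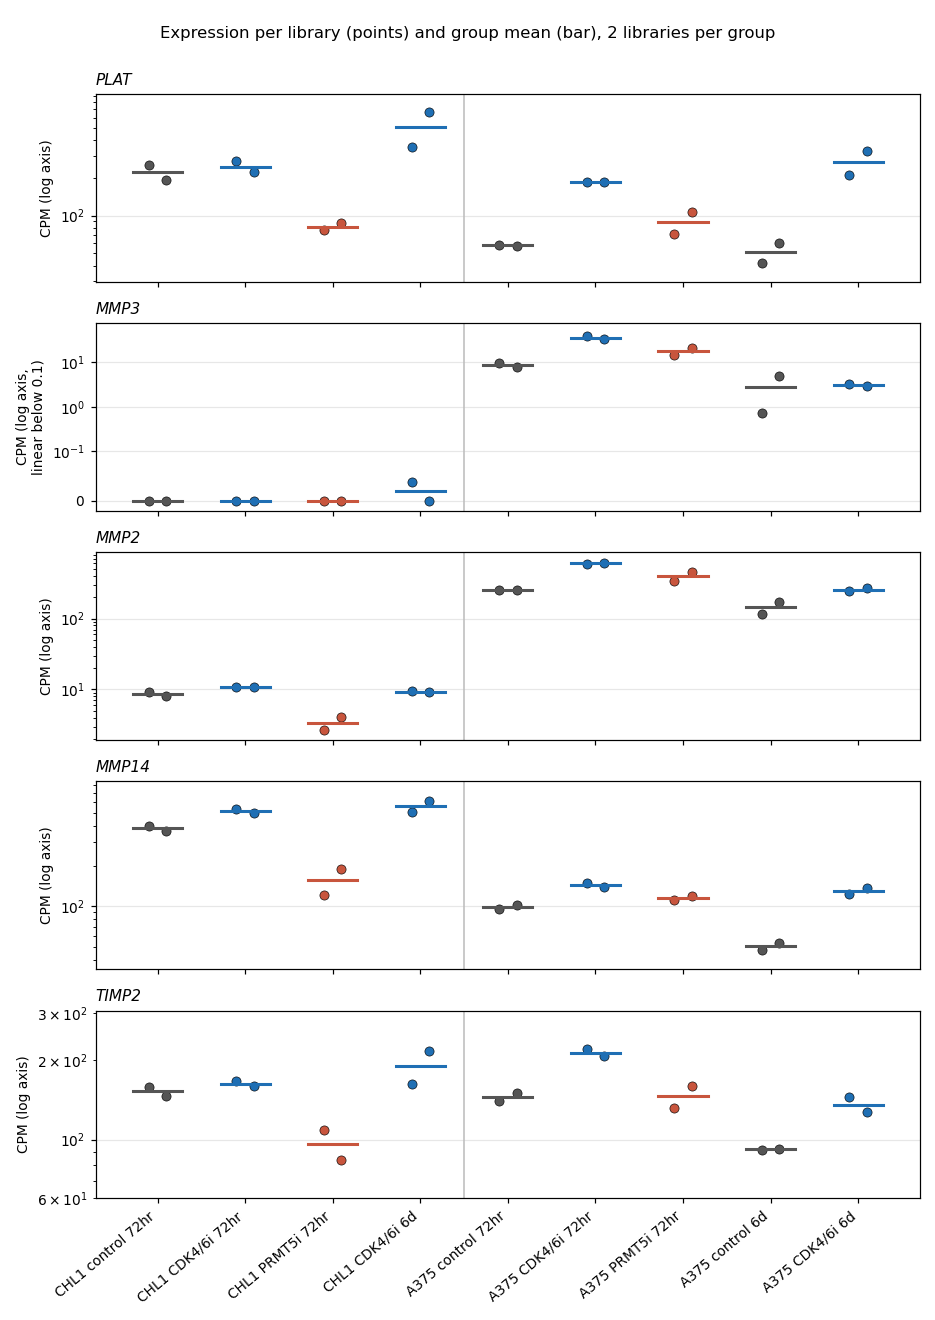
Expression of the 5 genes in each of the 18 libraries, in CPM on a log axis (the MMP3 axis is linear below 0.1 CPM so that zeros can be drawn). Points are libraries, horizontal bars are means of 2 libraries, and colours mark control (grey), CDK4/6i (blue) and PRMT5i (red). MMP2 lies between 2.72 and 10.9 CPM in CHL1 and between 114 and 616 CPM in A375.

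Per kilobase of exon, the order of the genes also differed in the controls. Lengths were merged exons, and the order depends on that choice. In CHL1, MMP14 stood highest at 82.8 ± 5.09 CPM per kb (SD, n = 2). PLAT followed at 28.6 ± 5.61 and TIMP2 at 24.5 ± 1.34, which did not differ beyond their spread at these lengths, and then MMP2 at 1.86 ± 0.166. In A375 at 72 hours, MMP2 led at 53.7 ± 0.508 CPM per kb. It was followed by TIMP2 at 23.4 ± 1.11, MMP14 at 21.4 ± 1.12, PLAT at 7.49 ± 0.0934 and MMP3 at 4.71 ± 0.588. TIMP2 and MMP14 lay close together without overlap, at 22.6 and 24.2 against 20.6 and 22.2 CPM per kb. Merged exons held 7770 bases in PLAT, 6209 in TIMP2 and 4623 in MMP14. The longest transcripts held 3462, 3652 and 3852 bases, and values by that length were not computed.

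CDK4/6i for 72 hours raised both a plasminogen activator and 2 secreted MMPs in A375. PLAT, tissue plasminogen activator (chr8:42032236-42065227, minus strand, GRCh37), rose from 58.7 and 57.7 CPM to 184 and 185 CPM, a 3.04-fold change (log2 1.60 ± 0.25 SE, adjusted p = 0.00055). MMP2 rose from 251 and 254 CPM to 585 and 616 CPM, or 2.28-fold (log2 1.19 ± 0.22 SE, adjusted p = 0.00216). MMP3, which cuts proteoglycans and activates other MMP precursors, rose from 9.51 and 7.97 CPM to 38 and 33.8 CPM, or 3.95-fold (log2 1.98 ± 0.48 SE, adjusted p = 0.0119). In each of these genes both treated libraries lay above both controls. WTAPP1, which shares part of the MMP3 exons, had 0.676 and 0.586 CPM in the control and 1.16 and 0.851 CPM after CDK4/6i (adjusted p = 0.516). MMP14 (95.3 and 103 against 149 and 139 CPM, log2 difference 0.49 ± 0.17 SE) and TIMP2 (140 and 150 against 219 and 207 CPM, 0.50 ± 0.17 SE) had no overlap between groups but missed the threshold, with adjusted p of 0.0688 and 0.0725. In all, 3 of the 5 genes rose, against 13.3% of all genes called and 6.22% called higher (7.11% lower), and the members' median log2 change was 1.19 beside 0.00 over all genes. The MMP3 call was lost with DESeq2 (adjusted p = 0.0584) and without control replicate 1, control replicate 2 or CDK4/6i replicate 1 (adjusted p = 0.0726, 0.107 and 0.0704), whereas MMP14 and TIMP2 were called with DESeq2 (adjusted p = 0.0293 and 0.0359) and when low genes were removed (0.0404 and 0.0427).

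After 6 days of CDK4/6i in A375, PLAT and MMP14 showed the most significant rises. PLAT rose from 41.8 and 60.1 CPM in the 6-day control to 211 and 327 CPM, which was 5.24-fold (log2 2.39 ± 0.25 SE, adjusted p = 1.02e-05). MMP14 rose from 47.6 and 53.2 CPM to 124 and 137 CPM, which was 2.58-fold (log2 1.37 ± 0.17 SE, adjusted p = 3.51e-05). Treated and control libraries were apart in both genes. MMP2 rose from 114 and 173 CPM to 244 and 270 CPM (log2 0.83 ± 0.22 SE, adjusted p = 0.00641). TIMP2 rose from 91.4 and 92.1 CPM to 144 and 127 CPM (log2 0.56 ± 0.17 SE, adjusted p = 0.0171). In MMP3 the control libraries were far apart, at 0.721 and 4.98 CPM, and the treated values of 3.2 and 2.97 CPM lay between them (log2 difference 0.10 ± 0.50 SE, adjusted p = 0.898). That value turned on 1 library, being -0.72 without control replicate 1 (adjusted p = 0.0341) and 2.11 without control replicate 2 (adjusted p = 0.000157).

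Thus 4 of 5 genes rose at 6 days, where 43.1% of all genes were called (21.8% of all genes higher and 21.3% lower). The median log2 change was 0.83 in the members and 0.10 over all genes. The 6-day control is one of the groups with a marked GC trend. With the GC correction, PLAT (log2 2.42, adjusted p = 0.00012) and MMP14 (log2 0.74, adjusted p = 0.0014) were still called, while MMP2 (log2 0.29, adjusted p = 0.0973) and TIMP2 (log2 0.04, adjusted p = 0.843) were not. Set against the 72-hour A375 control instead, PLAT was 2.16 higher on the log2 scale, and MMP14 was 0.35 higher and not called (adjusted p = 0.128). MMP2 and TIMP2 were at -0.02 and -0.15, and MMP3 was called lower at -1.55 (adjusted p = 0.0252). Treatment, time and library set cannot be told apart against that control. Tested directly, the 6-day change minus the 72-hour change passed in edgeR in none of the 5 genes, where 1.08% of all genes passed. MMP14 stood at 0.88 ± 0.24 SE (adjusted p = 0.0826), PLAT at 0.79 (adjusted p = 0.222) and MMP3 at -1.88 ± 0.69 SE (adjusted p = 0.162). By the unadjusted p, 3 members were below 0.05, as were 4118 of the 20705 genes. Without 6-day control replicate 2, MMP14 and PLAT passed (0.99 and 1.11, adjusted p = 0.00105 and 0.0176), and without replicate 1, MMP14 and MMP3 did (0.77 and -2.70, adjusted p = 0.0344 and 0.0012).

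**Figure D2:**
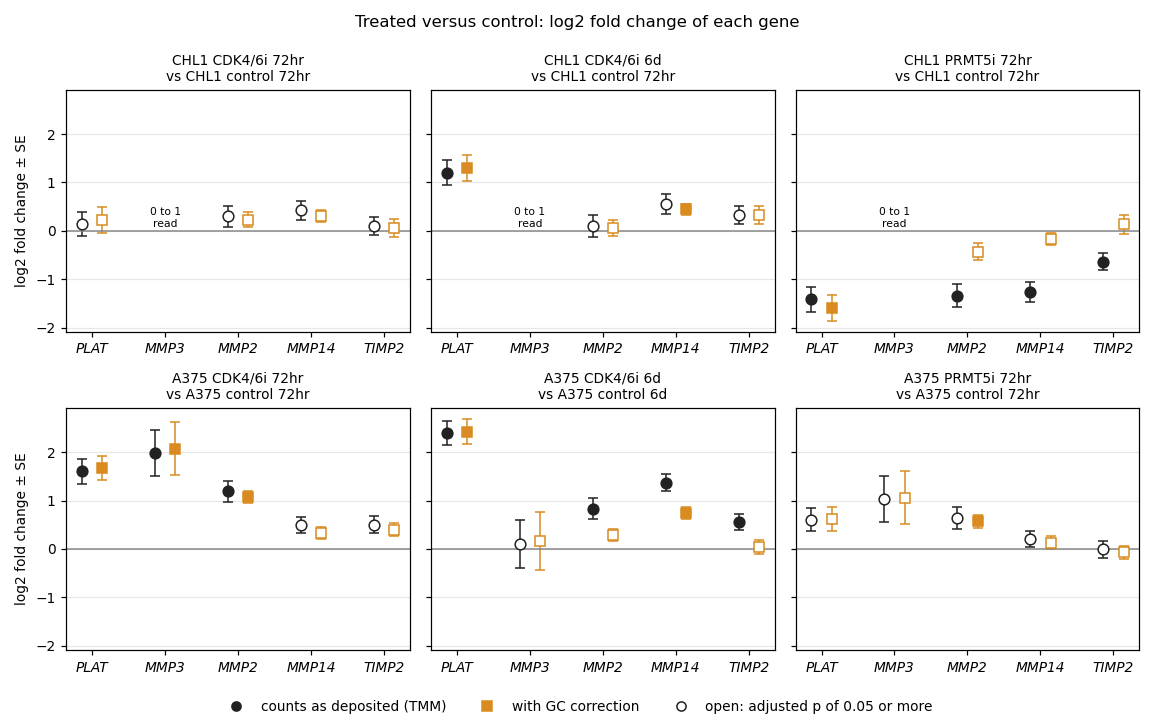
Log2 fold change of each gene against its control in the 6 treated groups, with bars of 1 SE. Black circles come from the counts as deposited, orange squares from the fit with GC correction, and open symbols have an adjusted p of 0.05 or more. In CHL1 PRMT5i the correction moves MMP14 from -1.27 to -0.17 and PLAT from -1.42 to -1.59.

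In CHL1, no member passed the test at 72 hours of CDK4/6i when all CHL1 groups were fitted together. PLAT had 253 and 191 CPM in the control and 270 and 221 CPM after 72 hours, with overlapping groups (log2 difference 0.14 ± 0.25 SE, adjusted p = 0.836). MMP14 had 399 and 366 CPM in the control and 532 and 495 CPM after treatment. Its log2 difference of 0.42 ± 0.20 SE was not called (adjusted p = 0.273). It was called (adjusted p = 0.0121) when only these 4 libraries were fitted, where 4202 of the 20705 genes were called. MMP2 and TIMP2 differed by 0.30 and 0.10 (adjusted p = 0.501 and 0.841). With all CHL1 groups in the fit, edgeR called none of the 5 genes and DESeq2 none of the 4 it tested. In edgeR 4.98% of all genes were called, 2.27% as higher and 2.72% as lower. None of the 5 had an unadjusted p below 0.05 there, beside 4161 of the 20705 genes.

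The 6-day CHL1 cells had no control of their own time, so treatment and time cannot be told apart, here or for other genes below. After 6 days PLAT rose in CHL1 to 349 and 664 CPM, 2.3-fold above the 72-hour control (log2 1.20 ± 0.26 SE, adjusted p = 0.00948). Both treated libraries exceeded both controls, but they differed from each other, and the call was lost without 6-day replicate 2 (log2 0.68, adjusted p = 0.061) or control replicate 2 (log2 1.01, adjusted p = 0.121). MMP14 had 503 and 611 CPM (log2 difference 0.55 ± 0.20 SE, adjusted p = 0.0835) and passed with the GC correction (0.44, adjusted p = 0.0195). MMP2 at 9.45 and 9.16 CPM and TIMP2 at 163 and 217 CPM were not called (adjusted p = 0.802 and 0.234). So 1 of 5 genes rose, beside 16.6% of all genes called, 8.83% as higher and 7.8% as lower. The median log2 difference was 0.55 in the members and 0.03 over all genes. Between 6 days and 72 hours of CDK4/6i, no member passed in edgeR, where 0.0145% of all genes passed. By the unadjusted p, 1 member was below 0.05, as were 1634 of the 20705 genes. PLAT differed by 1.06 on the log2 scale (adjusted p = 0.341), or by 1.44 without 6-day replicate 1.

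The CDK4/6i change at 72 hours was also compared between the lines directly. CHL1 minus A375 was -1.52 ± 0.39 SE for PLAT (adjusted p = 0.0934), -0.95 ± 0.30 SE for MMP2 (adjusted p = 0.185), -0.45 for TIMP2 (adjusted p = 0.593) and -0.12 for MMP14 (adjusted p = 0.967), all on the log2 scale. None passed in edgeR, where 0.642% of all genes did. By the unadjusted p, 2 members were below 0.05, as were 2073 of the 20705 genes. The calls made in A375 and missed in CHL1 are thus not by themselves a difference between the lines. However, MMP2 passed with the GC correction (-0.83, adjusted p = 0.019), and PLAT passed without the 6-day A375 libraries in the fit (-1.46, adjusted p = 0.0342). The first fit called 526 of 13679 genes and the second 490 of 20705.

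PRMT5i lowered 4 of the 5 genes in CHL1. PLAT fell from 253 and 191 CPM to 76.4 and 87 CPM, 2.68-fold lower (log2 -1.42 ± 0.26 SE, adjusted p = 0.000739). MMP2 fell from 9.29 and 8.19 CPM to 2.72 and 4.12 CPM (log2 -1.34 ± 0.23 SE, adjusted p = 0.000511). MMP14 fell from 399 and 366 CPM to 122 and 191 CPM (log2 -1.27 ± 0.21 SE, adjusted p = 0.000369). No treated library reached a control value in these genes. TIMP2 fell from 158 and 146 CPM to 109 and 83.9 CPM (log2 -0.64 ± 0.18 SE, adjusted p = 0.00964), and lost its call without control replicate 1 or PRMT5i replicate 2 (adjusted p = 0.0712 and 0.0574). MMP3 had no read in either group. Of all genes, 54% were called in this comparison, 26.4% as higher and 27.6% as lower, and the median log2 change was -1.27 in the members and 0.00 over all genes. With the GC correction only PLAT was still called (log2 -1.59, adjusted p = 0.0022). MMP2 then stood at -0.43 (adjusted p = 0.0745), MMP14 at -0.17 (adjusted p = 0.29) and TIMP2 at 0.13 (adjusted p = 0.639). The lower levels of the 3 GC-rich genes and the GC trend of the PRMT5i libraries thus moved together, and what produced both was not tested.

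In A375, PRMT5i gave no call among the 5 genes. MMP2 had 343 and 451 CPM against 251 and 254 CPM in the control (log2 difference 0.64 ± 0.22 SE, adjusted p = 0.143). MMP3 had 14.8 and 21.3 CPM against 9.51 and 7.97 CPM (1.03 ± 0.47 SE, adjusted p = 0.296). PLAT had 71.6 and 107 CPM against 58.7 and 57.7 CPM (0.60 ± 0.24 SE, adjusted p = 0.226). In each of the 3 genes the treated libraries lay above both controls, which with 2 libraries a group does not by itself show a change. MMP14 had 111 and 119 CPM against 95.3 and 103 CPM, again without overlap (0.20 ± 0.17 SE, adjusted p = 0.615), and TIMP2 overlapped with the control (-0.01, adjusted p = 1). Of all genes, 2.61% were called, 0.874% as higher and 1.74% as lower. By the unadjusted p, 3 members were below 0.05 in edgeR, as were 3332 of the 20705 genes, and no member was called with DESeq2. Without the 6-day libraries in the fit, MMP2, MMP3 and PLAT were called (adjusted p = 0.00678, 0.00201 and 0.0151) at log2 differences of 0.64, 1.03 and 0.60. That fit called 3265 of the 20705 genes. MMP2 was also called with the GC correction (0.57, adjusted p = 0.0245), where 1455 of 13679 genes were called.

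The effect of PRMT5i differed between the lines. The change in CHL1 minus that in A375 was -2.06 ± 0.40 SE for PLAT (adjusted p = 0.000782), -2.01 ± 0.31 SE for MMP2 (adjusted p = 0.000226), -1.51 ± 0.27 SE for MMP14 (adjusted p = 0.000474) and -0.66 ± 0.25 SE for TIMP2 (adjusted p = 0.0387). Of all genes, 40.9% passed this test. With the GC correction PLAT (-2.22) and MMP2 (-0.97) still passed, whereas MMP14 (-0.28, adjusted p = 0.246) and TIMP2 (0.23, adjusted p = 0.551) did not. The TIMP2 call was also lost with median-of-ratios scaling (-0.55, adjusted p = 0.0947).

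Set directly against CDK4/6i at 72 hours, PRMT5i cells had less PLAT in both lines. In CHL1 the log2 difference was -1.57 for PLAT, -1.69 for MMP14, -1.63 for MMP2 and -0.74 for TIMP2 (adjusted p = 0.000316, 4.44e-05, 0.000102 and 0.00377), so 4 of 5 genes were lower where 57.8% of all genes were called. With the GC correction MMP14 (-0.48), MMP2 (-0.66) and PLAT (-1.81) were still called and TIMP2 was at 0.07. In A375, PLAT was 1.00 lower on the log2 scale (adjusted p = 0.0272), 1 of 5 genes where 5.45% of all genes were called. This call was lost whichever of the 4 libraries was left out (log2 -1.31 to -0.75). With the GC correction, MMP2 and TIMP2 were called lower as well (-0.50 and -0.47, adjusted p = 0.0265 and 0.04). Without the 6-day libraries 4 of 5 genes were called lower, and all 5 with the replicate number as a block too. Those fits called 4571 and 7167 of the 20705 genes. The labels tie no replicate number to a shared culture. Comparisons within a line at 72 hours share control libraries, so their values are set side by side only.

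The balance of protease and inhibitor transcripts was described as a ratio of CPM per kb in each library, with no test. MMP14 stood 3.37 to 4.29 times above TIMP2 in the CHL1 control and CDK4/6i libraries and 1.51 and 3.06 times above it after PRMT5i. In A375 the ratio was 0.912 and 0.919 in the 72-hour control and 0.915 and 0.905 after 72 hours of CDK4/6i. It was 0.699 and 0.776 in the 6-day control and 1.16 and 1.45 after 6 days of CDK4/6i. MMP2 over TIMP2 ran from 0.033 to 0.09 in CHL1 and from 1.65 to 3.93 in A375, so the lines did not overlap in either ratio. The CHL1 PRMT5i and 6-day A375 control libraries are those with the marked GC trend, MMP14 is richer in GC than TIMP2, and these ratios were not corrected for it. The size of each ratio, and so its side of 1, depends on the use of merged exons as length.

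**Figure D3:**
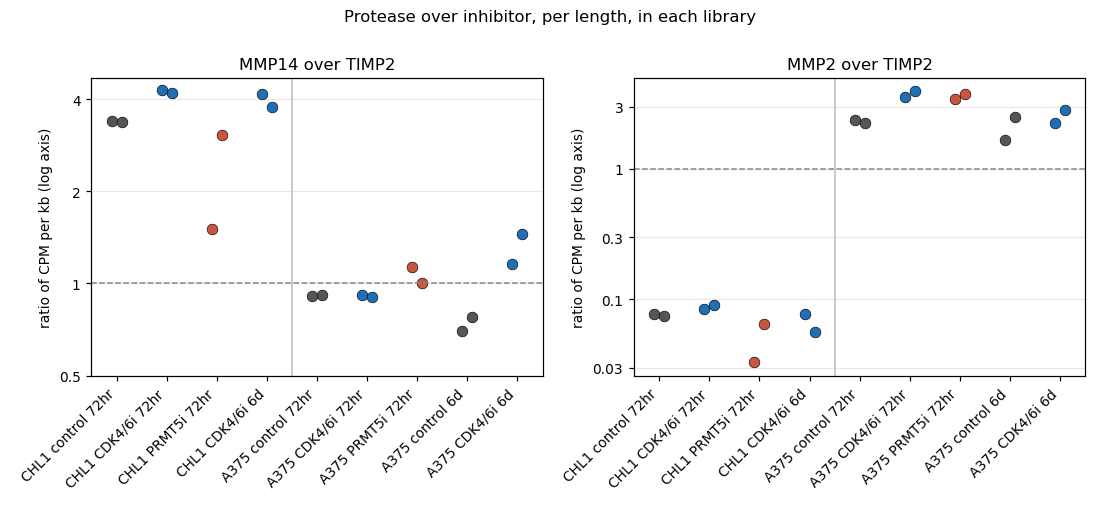
Ratio of MMP14 to TIMP2 (left) and of MMP2 to TIMP2 (right), each from CPM per kb of merged exon, in every library on log axes. The dashed line marks a ratio of 1, and colours are grey for control, blue for CDK4/6i and red for PRMT5i. The CHL1 ratios of MMP14 to TIMP2 lie between 1.51 and 4.29 and those of A375 between 0.699 and 1.45.

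Other genes of matrix proteolysis were counted by list, and their uncorrected counts are to be read beside the shares of all genes called given above. With the GC correction, 2317 of 13679 genes were called higher and 2336 lower in CHL1 PRMT5i. In A375 at 6 days these were 2980 and 2878. The same 13679 genes without the correction gave 4645 and 4888 in CHL1 PRMT5i and 3413 and 3801 in A375 at 6 days. Of 13 other MMPs with an entry, 4 rose and none fell in A375 after 72 hours of CDK4/6i, and 5 rose and 1 fell after 6 days. In CHL1 PRMT5i, 1 rose and 5 fell. Among the 7 with a GC value, the correction moved the count from 1 higher and 4 lower to 1 and 1 in CHL1 PRMT5i, and from 4 higher and 1 lower to 4 and 0 in A375 at 6 days. MMP15, a membrane MMP like MMP14, rose from 4.87 and 4.89 CPM to 20.9 and 19.1 CPM in A375 at 72 hours (log2 1.98, adjusted p = 3.82e-05) and by a log2 change of 1.89 at 6 days (1.28 with the GC correction). It was also higher after PRMT5i in A375 (log2 1.25, adjusted p = 0.00794) and after 6 days of CDK4/6i in CHL1 (log2 1.02, adjusted p = 0.0324). In CHL1 PRMT5i it had 23.3 and 39.3 CPM against 105 and 99.3 CPM in the control (log2 -1.69, adjusted p = 0.000595), a call that was lost with the GC correction (-0.27, adjusted p = 0.414). MMP17, which is anchored by glycosylphosphatidylinositol, rose in A375 at 72 hours and 6 days (log2 0.98 and 1.16, or 0.66 and 0.61 with the correction). In CHL1 PRMT5i its direction depended on the correction, with -0.92 without it (adjusted p = 0.0114) and 0.61 with it (adjusted p = 0.02). MMP16, a further membrane MMP, fell in CHL1 at 6 days (log2 -0.68, or -0.79 with the correction). It was called lower in A375 at 6 days (log2 -1.39, adjusted p = 0.000355) and higher in CHL1 PRMT5i (log2 0.88), and neither call remained with the correction (-0.36 and -0.31, adjusted p = 0.0535 and 0.0694). MMP23B had group means of only 0.215 to 1.68 CPM and no corrected value. It rose at 6 days in CHL1 and at both times in A375 (log2 1.20, 1.83 and 1.84) and fell in CHL1 PRMT5i (log2 -1.13).

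Of 10 further genes of the plasminogen system, 6 fell and 1 rose in CHL1 PRMT5i, with a median log2 change of -0.81 beside 0.00 over all genes. With the GC correction 6 of the 9 with a GC value fell, where 2336 of 13679 genes were called lower. LRP1, the receptor that clears plasminogen activators bound to their inhibitors, fell from 96.7 and 112 CPM to 14.6 and 29.8 CPM in that comparison (log2 -2.22, adjusted p = 0.000109), and by a log2 change of -1.08 with the correction (adjusted p = 0.00066). It rose after CDK4/6i in CHL1 at 72 hours and 6 days (log2 1.36 and 1.49, adjusted p = 0.0145 and 0.0034) and in A375 (log2 0.98 and 1.38, adjusted p = 0.00383 and 9.47e-05), and these 4 calls remained with the correction. SERPINE2, protease nexin 1, rose in A375 at both times (log2 0.78 and 0.63, or 0.95 and 1.11 with the correction) and was 94.6-fold lower in the CHL1 control than in the A375 control. In CHL1 PRMT5i it stood at -0.06 without the correction and was called at -0.77 with it (adjusted p = 0.00343). PLAUR, the receptor of PLAU, rose in A375 at 6 days (log2 0.87, adjusted p = 0.00271, or 0.32 and 0.0236 with the correction). ENO1, which binds plasminogen at the cell surface as well as acting in glycolysis, fell in CHL1 at 6 days and under PRMT5i (log2 -0.66 and -1.50, or -0.65 and -0.86 with the correction). SERPINI1, neuroserpin, rose in CHL1 at 6 days (log2 1.04), while its call under PRMT5i (log2 0.75) was lost with the correction (-0.03, adjusted p = 0.909). In A375, 2 genes of the list rose at 72 hours and 4 at 6 days, and none fell.

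**Figure D4:**
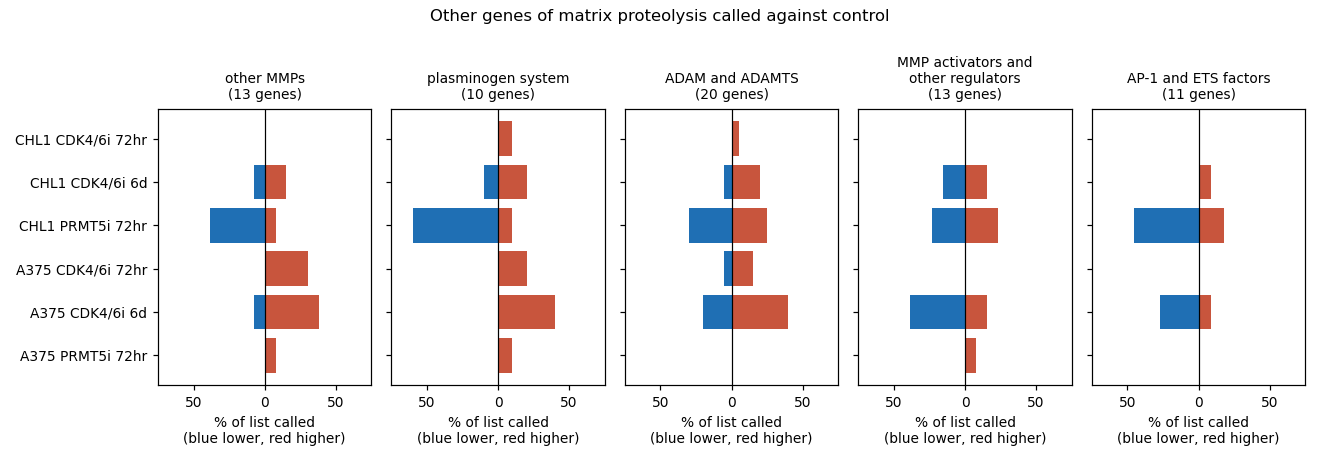
Share of each list, in percent of its genes with an entry, that was called lower (blue, to the left) or higher (red, to the right) against control in each of the 6 treated groups. In the plasminogen system 6 of 10 genes fell in CHL1 PRMT5i, and among other MMPs 5 of 13 rose in A375 after 6 days of CDK4/6i, all without the GC correction.

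Among 20 ADAM and ADAMTS genes, which shed membrane proteins or cut matrix, 8 rose and 4 fell in A375 at 6 days and 5 rose and 6 fell in CHL1 PRMT5i. Among the 19 with a GC value, the correction moved the count from 7 higher and 6 lower to 6 and 4 in A375 at 6 days, and from 5 higher and 6 lower to 4 and 3 in CHL1 PRMT5i. ADAMTS3, a procollagen protease, fell in A375 at 72 hours and 6 days (log2 -1.36 and -1.85, adjusted p = 0.000258 and 8.15e-06) and in CHL1 at 6 days (log2 -1.56, adjusted p = 0.027), also with the correction. ADAMTS14, of the same enzyme class, rose in CHL1 at 72 hours and 6 days (log2 1.38 and 1.99) and in A375 at 6 days (log2 2.57), also with the correction. Its A375 levels were low, at 0.21 and 0.0626 CPM in the 6-day control and 0.956 and 0.721 CPM after CDK4/6i. In CHL1 PRMT5i it was called only with the correction (1.51, adjusted p = 0.00178, against 0.16). ADAMTS13, which cuts von Willebrand factor, and ADAM9, a sheddase, rose in CHL1 at 6 days with and without the correction (log2 1.50 and 0.88 without it). Their other calls were lost with it, namely ADAMTS13 in A375 at 6 days (1.03 to 0.41) and CHL1 PRMT5i (-1.82 to -0.48), and ADAM9 in A375 at 6 days (-1.15 to -0.31) and CHL1 PRMT5i (0.88 to -0.19).

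Of 13 activators and other regulators of MMPs, 2 rose and 5 fell in A375 at 6 days and 3 rose and 3 fell in CHL1 PRMT5i. Among the 11 with a GC value, 2 rose and 2 fell in the first and 1 rose and 2 fell in the second with the GC correction. FURIN, the convertase that activates MMP14, fell in CHL1 PRMT5i from 161 and 145 CPM to 28.3 and 45.6 CPM (log2 -2.03, adjusted p = 8.32e-05, or -0.78 and 0.000871 with the correction). Its call in A375 at 6 days (log2 0.72, adjusted p = 0.011) was lost with the correction (0.10, adjusted p = 0.646). BSG, which induces MMPs in neighbouring cells, rose in A375 at 6 days (log2 1.11, or 0.49 with the correction), and its call in CHL1 PRMT5i (log2 -1.40) was lost with it (-0.14, adjusted p = 0.393). RECK, a membrane inhibitor of MMP14 and MMP2, fell in A375 at 6 days (log2 -1.02, adjusted p = 0.00309, or -0.67 and 0.0131 with the correction), and its call in CHL1 PRMT5i (log2 0.55) was lost with it (0.02, adjusted p = 0.938). CD44, which anchors MMP14 at the cell front, rose in CHL1 at 6 days and under PRMT5i (log2 0.72 and 0.91, or 0.82 and 0.58 with the correction). CAV1, a protein of membrane caveolae, rose in CHL1 at 6 days (log2 0.84), and its call in A375 at 6 days (log2 -0.96) was lost with the correction (-0.68, adjusted p = 0.057).

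AP-1 and ETS factors are known regulators of MMP promoters. Of 11 genes, 2 rose and 5 fell in CHL1 PRMT5i and 1 rose and 3 fell in A375 at 6 days, while none was called in A375 at 72 hours. After the GC correction, 1 rose and none fell in CHL1 PRMT5i, and none rose and 3 fell in A375 at 6 days. JUND fell in A375 at 6 days (log2 -1.62, or -2.18 with the correction) and ELK3 did too (log2 -1.07, or -0.76). Without the correction JUND and ELK1 were called lower in CHL1 PRMT5i (log2 -1.78 and -0.94) and ETV1 and ELK3 higher (log2 1.35 and 0.76), and none of these calls remained with it (adjusted p = 0.511, 0.588, 0.557 and 0.124). In A375 at 6 days the calls of ETV1 (log2 -1.15) and ELK1 (log2 0.73) were lost as well (adjusted p = 0.26 and 0.426).

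The gene most alike to each member was the one with the highest Pearson correlation of log2 CPM over the libraries of a line, which share treatments, depth and the GC trend. Over the 8 CHL1 libraries and 14676 genes these were DDOST for MMP2 and TBC1D13 for MMP14 (both 0.998), ATP11A for PLAT (0.993) and GTF2IP1 for TIMP2 (0.987). Over the 10 A375 libraries and 15266 genes they were SLC25A22 for MMP2 (0.99), CASC10 for MMP3 and KHNYN for MMP14 (both 0.987), ITM2C for TIMP2 (0.984) and CSRNP2 for PLAT (0.981). No member had the same gene in both lines.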

How the data were processed

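Poly-A RNA of the 18 libraries (TruSeq, paired end) was aligned by the authors to GRCh37/hg19 and counted per gene. The submitters' processing notes name FastQC 0.11.6, HISAT2 2.0.4, SAMtools 1.18, Picard 2.17.3 and HTSeq 0.11.2, with strandedness not given in the sources used here. The deposited values are whole-number read counts with differing totals, although they are called normalized, and were used as counts. Totals of 16213475 to 37424081 per library leave counting error in low genes, and replicates differed by more than that error. Reads carried no molecular identifiers and are not independent molecules.

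Libraries were grouped by their labels. All 20705 genes were fitted per line (both lines together for comparisons between lines) by edgeR 4.0.16 quasi-likelihood (limma 3.58.1, R 4.3.3) with TMM scaling, no filter, prior count 0.125 and Benjamini-Hochberg adjustment over all genes, and were called at 0.05. Genes at or under 3 counts per library were given as a bound. CPM per kb used merged exons of GENCODE 44 on GRCh37. The script was tested on simulated data. Tables and figures used Python 3.11.15, pandas 2.3.3 and matplotlib 3.10.9.

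For the GC correction, log2 deviations of the 13679 genes that averaged 1 CPM or more and had a GC value (longest transcript) were smoothed by loess with a span of 0.4 and entered as offsets. GC values were found for 15208 genes by symbol and 1155 by an older symbol, and not for 4342. Other alternatives were median-of-ratios scaling, DESeq2 1.42.0, a filter of 1 CPM in 2 libraries, the replicate number as a block, the compared groups alone, the 72-hour control for 6-day A375, and leaving out each library. Fits on the genes with a GC value but no correction and on the numbered libraries alone were added after seeing the data.

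The members and lists were chosen with earlier results of these data known. By rule, at most 4 genes a list were named, those called in the most treated comparisons with ties by mean CPM, with PLAUR and RECK always. One gene that the rule also names is counted in its list but is not reported here. WTAPP1 was named for its overlap with MMP3. The most alike gene had the highest correlation of log2 CPM (pseudocount 1), and genes below a mean of 1 CPM were not considered.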

Additional observations from a re-analysis of the deposited data

Results flagged for a closer look

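The change under PRMT5i differed between CHL1 and A375 by a test of the difference itself (edgeR quasi-likelihood, adjusted over all genes). The log2 change in CHL1 minus that in A375 was -2.06 for PLAT, -2.01 for MMP2, -1.51 for MMP14 and -0.66 for TIMP2, and in each gene both PRMT5i libraries of CHL1 lay below both of its controls. Of all genes, 40.9% passed the same test. With the GC correction PLAT (-2.22) and MMP2 (-0.97) still passed, while MMP14 was at -0.28 (adjusted p = 0.246) and TIMP2 at 0.23 (adjusted p = 0.551). The CHL1 PRMT5i libraries are those with the strongest GC trend, and line, medium and library set cannot be told apart in this difference.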

How the results depend on the processing

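With 2 libraries a group, leaving 1 out assumes that the lone library varies like the other groups, and 1 library decided several calls. The number of the 5 genes called depended on the fit. In CHL1 at 72 hours of CDK4/6i it went from 0 to 1 when only the compared groups were fitted. In CHL1 at 6 days it went from 1 to 2 with the GC correction, and from 0 to 1 over the fits that left out 1 library. In CHL1 PRMT5i it fell from 4 to 1 with the GC correction. In A375 at 72 hours it went from 3 to 5 with the filter of 1 CPM in 2 libraries, with the genes that have a GC value left uncorrected, with only the numbered libraries and with only the compared groups. In A375 at 6 days it went from 4 to 2 with the GC correction, with only the compared groups and with the 72-hour control. In A375 PRMT5i it went from 0 to 1 with the GC correction, 3 with only the numbered libraries and 2 with only the compared groups. For PRMT5i against CDK4/6i in A375 it went from 1 to 3 with the GC correction and 4 with only the numbered libraries, and was 0 whichever library was left out. Leaving out a library gave 0 to 1 for 6 days against 72 hours in CHL1 and 0 to 2 for the 6-day minus the 72-hour change in A375. For the CDK4/6i change between lines it went from 0 to 1 with the GC correction and with only the numbered libraries, and for the PRMT5i change from 4 to 2 with the GC correction. The uncorrected-gene and numbered-library fits were chosen after seeing the data.

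The replicate number was tested as a block. Same-numbered libraries deviated together with r of -0.2337 to 0.2691 in CHL1 and 0.1042 to 0.3533 in A375 at 72 hours, and the labels tie no number to a shared culture. With the replicate block, member calls in A375 were 5 higher at 72 hours, 3 higher under PRMT5i and 5 lower for PRMT5i against CDK4/6i. With the replicate block and GC correction together these were 5 and 3 for the first 2, 2 in CHL1 at 6 days and 1 in CHL1 PRMT5i. GEO's labels give the 6-day A375 libraries no replicate number, and these were not blocked.

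Directions turned as follows. For TIMP2 the log2 difference was 0.13 in CHL1 PRMT5i with the GC correction (0.12 with the block as well), 0.07 against CDK4/6i and 0.23 for the difference between lines. For the 6-day minus the 72-hour change in A375, TIMP2 was -0.03 with median-of-ratios scaling, -0.01 with the filter, -0.01 with the uncorrected genes and -0.36 with the GC correction. With the 72-hour control, MMP2, MMP3 and TIMP2 were -0.02, -1.55 and -0.15 in A375 at 6 days. Leaving out libraries gave -0.04 to 0.36 for PLAT in CHL1 at 72 hours, -0.72 to 2.11 for MMP3 in A375 at 6 days, -0.15 to 0.11 for TIMP2 in A375 PRMT5i and -0.01 to 0.14 for TIMP2 between the lines. For the 6-day minus the 72-hour change it gave -0.65 to 0.01 for MMP2, -2.70 to 0.13 for MMP3 and -0.07 to 0.16 for TIMP2. The cause was not tested.

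Over all genes, in CHL1 at 72 hours 1032 were called, against 2206 with the GC correction (2412 with the block too), 1675 with DESeq2, 4202 with only the compared groups and 103 to 136 without a library. In CHL1 at 6 days there were 3443, against 631 to 2583 without a library. In CHL1 PRMT5i 11176 were called, against 4653 with the GC correction (4824 with the block too), and against CDK4/6i 11958, against 6518. In A375 at 72 hours they were 2761, against 8752 with the block (7303 with GC correction too), 6424 with only the numbered libraries, 6940 with only the compared groups and 827 to 1042 without a library. In A375 at 6 days they were 8928, against 5858 with the GC correction and 5862 with only the compared groups. In A375 PRMT5i they were 541, against 6113 with the block (5350 with GC correction too), 3265 with only the numbered libraries, 1861 with only the compared groups, 1455 with the GC correction, 901 with DESeq2 and 20 to 67 without a library. PRMT5i against CDK4/6i in A375 gave 1129, against 7167 with the block, 4571 with only the numbered libraries, 2531 with the GC correction and 92 to 141 without a library. The 6-day minus the 72-hour change gave 224, against 341 with median-of-ratios scaling and 56 to 7019 without a library. Between lines, CDK4/6i gave 133, against 526 with the GC correction, 500 with the block, 490 with only the numbered libraries and 30 to 46 without a library, and PRMT5i gave 8466, against 3588 with the GC correction. Of 57 member values, 55 kept their direction and side of the threshold with median-of-ratios scaling, 54 with the filter and 43 with the GC correction, as did 246 of 280 with a library left out.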
